A study of Mus musculus with 20 samples.

Results

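The genes described here are 10 genes of the collecting duct, the last segment of the kidney tubule, measured by bulk RNA sequencing of mouse kidney cortex. They were taken by symbol from the gene tables: 6 genes of principal cells (*Aqp2*, *Aqp3*, *Scnn1a*, *Scnn1b*, *Scnn1g* and *Avpr2*) and 4 genes of intercalated cells (*Slc26a4*, *Slc4a1*, *Atp6v1g3* and *Atp6v0d2*). All 10 of the 10 symbols matched 1 mouse Ensembl identifier among the 43430 genes in the files, and all 10 passed the filter on low counts that left 16152 genes for testing. Each of the 20 libraries is the kidney cortex of 1 male C3H/HeJ mouse, and p-values measure the spread between these libraries.

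All mice, controls included, were 10 weeks old at the start and were fed a high-fat diet (HFD) with 60% of its calories from fat. After 8 weeks they received either placebo (DMSO) or MAT2Ai, an inhibitor of methionine adenosyltransferase 2A, the enzyme that makes the methyl donor S-adenosylmethionine outside the liver. MAT2Ai was injected into the abdominal cavity at 10 mg/kg, 3 times per week, for a further 8 weeks. WT mice were compared with Sweet Pee (SP) mice, whose germline missense mutation of *Slc5a2* leaves them without a working SGLT2, the transporter that takes up most of the filtered glucose in the proximal tubule, so that they lose glucose in the urine. There were 5 libraries in each of the 4 groups, WT mice given placebo or MAT2Ai and SP mice given placebo or MAT2Ai. No group on a normal diet was analysed here.

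In the collecting duct, principal cells reabsorb water and sodium and intercalated cells handle acid and base. Vasopressin binds the V2 receptor on principal cells and, through cyclic AMP, moves aquaporin-2 into the apical membrane, while aldosterone raises the activity of the epithelial sodium channel ENaC. Type A intercalated cells secrete protons with a vacuolar H+-ATPase and return bicarbonate to the blood through the anion exchanger AE1, and type B cells secrete bicarbonate through pendrin. An osmotic diuresis such as glucosuria brings more fluid and solute to these cells, which is why their genes are of interest in mice without SGLT2 function.

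The files held 53296824 to 79339949 counts on genes per library, and the lowest count of any member in any library was 298. Mitochondrial genes took 12.4% to 22.2% of the counts. *Slc5a2* itself was read first as the check of the genotype labels. It ranged from 229 to 518 CPM (counts scaled to library size by trimmed mean of M values) in WT libraries. In 8 of 10 SP libraries it was 40.2 to 85.9 CPM. It stood at 241 CPM and 282 CPM in the libraries labelled SP placebo 1 and 2, far above the other SP libraries. Only WT MAT2Ai 2 (229 CPM) was lower among WT libraries, the others being at 325 CPM or more. The library WT MAT2Ai 2 stood apart, with 8290 CPM over 10 tubular injury markers against 451 to 973 CPM in the other 19 libraries, and 8880 CPM over 10 proximal tubule markers against at least 11703 CPM. The library WT MAT2Ai 3 had the highest sum of inner medullary markers (298 CPM, with a median of 108 CPM over all libraries) and of urothelial markers (32.8 CPM, median 0.955 CPM). The main counts and values are also given without the libraries labelled SP placebo 1 and 2, and without WT MAT2Ai 2, 3 and 4 together. The values above do not set WT MAT2Ai 4 apart, so leaving it out rests on no criterion stated here. That setting keeps only 2 libraries, WT MAT2Ai 1 and 5, in the group.

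Fragments of 4 promoters are shown because 3 of these genes (*Scnn1b*, *Scnn1g* and *Slc26a4*) varied together from mouse to mouse and the other (*Aqp2*) followed them less closely. Each line is the 250 bases before the RefSeq start, 5′ to 3′ on the gene's strand, from the GRCm38.p6 reference, which is the genome of another strain than C3H. Capitals mark a cyclic AMP response element half-site (TGACG or CGTCA), a steroid receptor half-site (AGAACA or TGTTCT) or a TATA box (TATAAA or TTTATA), and a forkhead core (TGTTTA or TAAACA) was searched as well. The positions are chr15:99578806-99579055 (plus strand) for *Aqp2*, chr7:121864788-121865037 (plus) for *Scnn1b*, chr7:121734229-121734478 (plus) for *Scnn1g* and chr12:31559985-31560234 (minus) for *Slc26a4*.
Aqp2: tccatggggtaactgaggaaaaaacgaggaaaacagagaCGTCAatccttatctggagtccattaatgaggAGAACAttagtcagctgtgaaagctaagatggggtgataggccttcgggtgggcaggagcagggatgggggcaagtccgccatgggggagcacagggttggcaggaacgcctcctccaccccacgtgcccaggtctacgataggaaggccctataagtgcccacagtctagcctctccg
Scnn1b: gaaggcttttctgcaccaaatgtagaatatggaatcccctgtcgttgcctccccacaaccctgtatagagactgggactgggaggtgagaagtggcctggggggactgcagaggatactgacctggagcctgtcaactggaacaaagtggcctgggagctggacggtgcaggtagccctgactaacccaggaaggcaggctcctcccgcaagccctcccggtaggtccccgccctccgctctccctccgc
Scnn1g: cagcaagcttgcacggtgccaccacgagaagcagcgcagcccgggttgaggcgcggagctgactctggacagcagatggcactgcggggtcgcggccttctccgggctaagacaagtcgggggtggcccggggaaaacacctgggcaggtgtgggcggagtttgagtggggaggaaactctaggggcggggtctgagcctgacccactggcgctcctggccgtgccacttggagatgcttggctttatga
Slc26a4: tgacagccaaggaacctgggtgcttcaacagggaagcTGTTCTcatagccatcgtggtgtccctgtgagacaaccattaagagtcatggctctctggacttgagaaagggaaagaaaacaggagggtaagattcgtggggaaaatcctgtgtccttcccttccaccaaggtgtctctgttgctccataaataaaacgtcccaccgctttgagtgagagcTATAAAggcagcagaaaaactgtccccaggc

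Promoters of 7 of the 10 genes were matched in the RefSeq table, and those of *Scnn1a*, *Slc4a1* and *Atp6v0d2* were not. The *Aqp2* window had 1 cyclic AMP half-site 211 bases and 1 steroid half-site 179 bases before the start. The *Slc26a4* window had 1 steroid half-site at 213 bases and a TATA box at 31 bases. None of the 4 motifs was found in the windows of *Scnn1b*, *Scnn1g* or *Atp6v1g3*, while *Aqp3* had a TATA box at 29 bases and *Avpr2* had 2 steroid half-sites, 1 forkhead core and 1 TATA box. Such short motifs are common: 17.8% of 32851 promoter windows of the same length held the cyclic AMP half-site, 16.1% the steroid half-site, 12% the forkhead core and 12.4% the TATA box. The windows of *Scnn1b* and *Scnn1g* were richer in G and C (60.8% and 65.2%) than those of *Aqp2* (55.6%) and *Slc26a4* (49.6%).

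The 10 genes covered a wide range of levels, and the order was nearly the same in every library. On a scale that allows genes to be compared (CPM per kilobase of exon, mean ± SD over 20 libraries), *Aqp2* was the most abundant at 212 ± 54.7 and *Aqp3*, the basolateral water channel of principal cells, followed at 74.7 ± 11.7, and each stood above the next gene in all 20 libraries. *Scnn1a* (27.7 ± 4.49) and *Atp6v1g3* (25.9 ± 3.70) did not separate, with *Scnn1a* higher in 14 of 20 libraries. *Slc26a4* (18.8 ± 4.10) was above *Scnn1b* (17.4 ± 2.90) in 16 libraries, *Scnn1b* above *Scnn1g* (14.5 ± 2.65) in 20, and *Scnn1g* above *Atp6v0d2* (7.80 ± 1.26) in 20. The lowest levels were those of *Avpr2* (4.40 ± 1.34) and *Slc4a1* (4.15 ± 1.03), whose order changed from library to library. Aquaporin-2 mRNA was therefore more abundant per length than the mRNA of its upstream receptor in every library, the lowest *Aqp2* value being 113 and the highest *Avpr2* value 7.27.

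**Figure D1:**
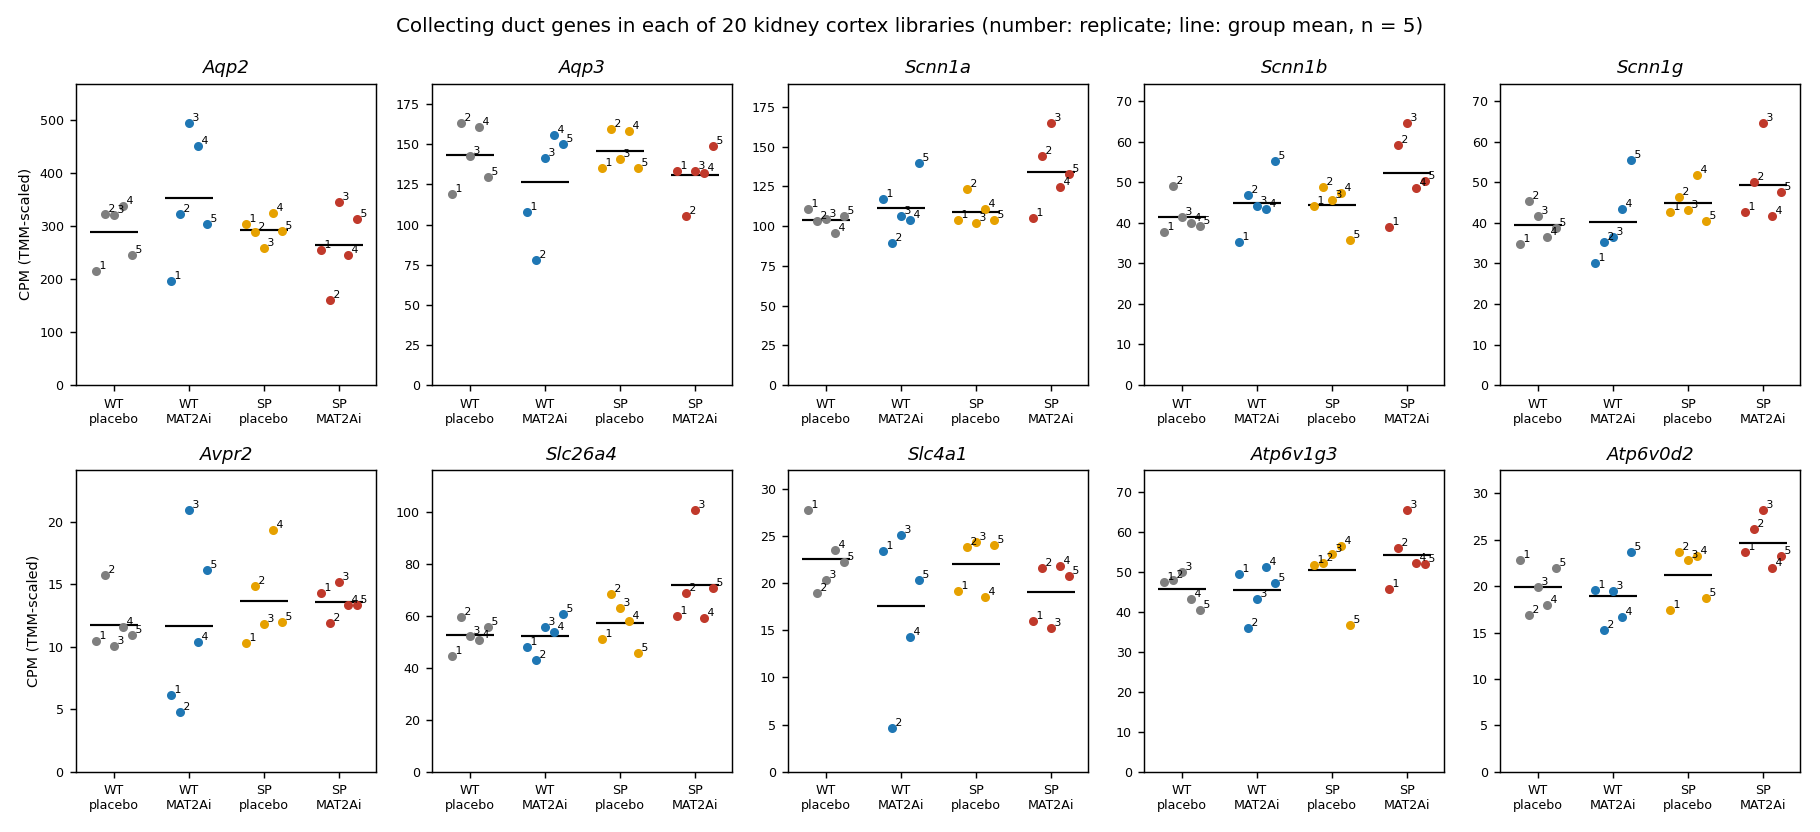
Level of each of the 10 genes in each of the 20 libraries, as CPM scaled by trimmed mean of M values (y axis, from 0), by group (x axis). Points carry the replicate number and the line is the mean of 5 libraries. *Slc26a4* and *Atp6v0d2* lie highest in SP MAT2Ai (up to 101 and 28.2 CPM), and replicate 2 of WT MAT2Ai lies at the bottom for 7 genes.

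The sodium channel came first among the questions, because its 3 subunits (α, β and γ, encoded by *Scnn1a*, *Scnn1b* and *Scnn1g*) form 1 channel at the apical membrane of principal cells. *Scnn1a* (chr6:125320659-125344943) read 111, 103, 105, 95.9 and 106 CPM in WT placebo and 117, 89.2, 106, 104 and 140 CPM in WT MAT2Ai. It read 104, 123, 102, 111 and 104 CPM in SP placebo and 105, 144, 165, 124 and 133 CPM in SP MAT2Ai. In SP mice 4 of 5 MAT2Ai libraries lay above the highest placebo library, and the remaining one lay within the placebo range. The difference between MAT2Ai and placebo in SP was 0.30 ± 0.11 (log2, SE; edgeR adjusted p = 0.833 over all tested genes), and in WT it was 0.09 ± 0.11 (edgeR adjusted p = 0.700). The interaction of genotype and treatment, which tests whether these differ, was 0.21 ± 0.15 (edgeR adjusted p = 0.862), with an interval (2 SE on each side) of −0.10 to 0.52. Over both genotypes the MAT2Ai difference for *Scnn1a* was 0.20 ± 0.08 (edgeR adjusted p = 0.264), the lowest unadjusted p among the members in that comparison. Without WT MAT2Ai 2, 3 and 4, the MAT2Ai difference in WT was 0.30 (edgeR adjusted p = 0.445) and the interaction 0.0035. The MAT2Ai difference over both genotypes was then 0.30 (edgeR adjusted p = 0.102). That setting keeps only 117 and 140 CPM in WT MAT2Ai, the highest values of that group.

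*Scnn1b* (chr7:121865038-121918514) read 37.6, 49.0, 41.4, 39.9 and 39.3 CPM in WT placebo, 35.3, 46.9, 44.1, 43.3 and 55.3 CPM in WT MAT2Ai, 44.2, 48.8, 45.5, 47.3 and 35.7 CPM in SP placebo, and 38.9, 59.2, 64.6, 48.6 and 50.2 CPM in SP MAT2Ai. *Scnn1g* (chr7:121734479-121768475) read 34.7, 45.5, 41.7, 36.5 and 38.7 CPM in WT placebo, 30.2, 35.2, 36.6, 43.5 and 55.6 CPM in WT MAT2Ai, 42.7, 46.4, 43.1, 51.7 and 40.6 CPM in SP placebo, and 42.6, 50.1, 64.7, 41.8 and 47.6 CPM in SP MAT2Ai. For both, the 4 groups overlapped and the widest spread was within the MAT2Ai groups. The MAT2Ai difference in SP was 0.24 ± 0.13 for *Scnn1b* (edgeR adjusted p = 0.892) and 0.14 ± 0.14 for *Scnn1g* (edgeR adjusted p = 0.986). Under MAT2Ai, *Scnn1g* was 0.30 ± 0.14 higher in SP than in WT (edgeR adjusted p = 0.221), and *Scnn1b* 0.22 ± 0.13 (edgeR adjusted p = 0.320).

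The β and γ genes lie side by side on chromosome 7 with 96.6 kb between them, about 6.35 and 6.50 Mb from *Slc5a2* on the same chromosome. All 4 groups' values for them overlapped. Under placebo, where the genotypes were compared without the drug, the SP difference was 0.10 ± 0.13 for *Scnn1b* and 0.19 ± 0.14 for *Scnn1g* and neither passed the threshold. Without the libraries labelled SP placebo 1 and 2 these became 0.04 and 0.19.

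Pendrin (*Slc26a4*, chr12:31519827-31559969) had the lowest unadjusted p of the 10 genes in any comparison. It is the apical chloride and bicarbonate exchanger of type B intercalated cells. Its values were 44.7, 59.5, 52.4, 50.6 and 55.8 CPM in WT placebo and 47.9, 42.9, 55.7, 53.7 and 60.6 CPM in WT MAT2Ai. In SP they were 51.1, 68.6, 63.1, 58.1 and 45.7 CPM with placebo and 60.1, 68.9, 101, 59.3 and 70.9 CPM with MAT2Ai. Of the 5 SP MAT2Ai libraries, 3 lay above the highest WT MAT2Ai library (60.6 CPM), and all 5 lay above the second highest (55.7 CPM). Group means were 52.6 ± 5.56, 52.2 ± 6.90, 57.3 ± 9.17 and 72.0 ± 16.9 CPM (SD, n = 5, in the same order). Under MAT2Ai, *Slc26a4* was 1.38 times as high in SP as in WT, a log2 difference of 0.46 ± 0.14 with an interval of 0.19 to 0.74 (edgeR adjusted p = 0.0660). The MAT2Ai difference was 0.33 ± 0.14 in SP (edgeR adjusted p = 0.833) and −0.01 ± 0.14 in WT (edgeR adjusted p = 0.976). The interaction was 0.34 ± 0.19 (edgeR adjusted p = 0.842), so a difference between the 2 drug responses was not established.

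*Atp6v0d2* (chr4:19876841-19922605) encodes the d2 subunit of the membrane part of the vacuolar H+-ATPase, an isoform found in intercalated cells, osteoclasts and some macrophages. It read 22.9, 16.9, 19.9, 17.9 and 22.0 CPM in WT placebo, 19.5, 15.2, 19.5, 16.7 and 23.7 CPM in WT MAT2Ai, 17.5, 23.7, 22.8, 23.3 and 18.7 CPM in SP placebo, and 23.7, 26.2, 28.2, 22.0 and 23.3 CPM in SP MAT2Ai. The SP MAT2Ai libraries were above 4 of the 5 WT MAT2Ai libraries and overlapped only the fifth. Under MAT2Ai it was 0.38 ± 0.12 higher in SP than in WT (interval 0.15 to 0.62; edgeR adjusted p = 0.0747), and the interaction was 0.29 ± 0.17 (edgeR adjusted p = 0.842). The 10 macrophage and osteoclast markers summed to 99.1 to 127 CPM in SP MAT2Ai and 116 to 156 CPM in WT MAT2Ai. Among them *Acp5* was 65.8 to 91.8 CPM over all libraries and *Ctsk* 0.973 to 3.81 CPM, while the fusion genes *Ocstamp* and *Dcstamp* were at most 0.186 and 0.0870 CPM. In SP against WT under MAT2Ai, 7 of the 8 markers tested were below 0, with a median of −0.64. By edgeR 2 of the 8 were called lower, against 1.84% of all genes called. *Acp5* averaged 77.6 CPM in WT MAT2Ai and 77.8 CPM in SP MAT2Ai. The part of macrophages and osteoclasts in the *Atp6v0d2* values was not tested.

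*Atp6v1g3* (chr1:138273738-138289462), the G3 subunit of the cytosolic part of the same pump, had group means of 45.7 ± 3.87 (WT placebo), 45.3 ± 6.04 (WT MAT2Ai), 50.3 ± 7.81 (SP placebo) and 54.2 ± 7.27 CPM (SP MAT2Ai; SD, n = 5). Its SP difference was 0.14 ± 0.11 under placebo and 0.26 ± 0.11 under MAT2Ai (edgeR adjusted p = 0.198). These are small differences next to the range of 35.9 to 65.5 CPM over all libraries.

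AE1 was the most variable of the intercalated genes. *Slc4a1* (chr11:102348824-102366203) encodes the basolateral bicarbonate exchanger of type A cells and also the band 3 protein of red cells. It read 27.8, 19, 20.3, 23.5 and 22.2 CPM in WT placebo, 23.4, 4.63, 25.1, 14.3 and 20.4 CPM in WT MAT2Ai, 19.2, 23.8, 24.3, 18.5 and 24.0 CPM in SP placebo, and 16, 21.6, 15.2, 21.8 and 20.7 CPM in SP MAT2Ai. The value of 4.63 CPM belongs to WT MAT2Ai 2, and no other library was below 14.3 CPM. Its MAT2Ai difference was −0.36 ± 0.27 in WT (edgeR adjusted p = 0.528) and −0.20 ± 0.27 in SP (edgeR adjusted p = 0.988), and without WT MAT2Ai 2, 3 and 4 the WT value was −0.05. Red cell transcripts were present, *Alas2* reaching 33.6 CPM in SP placebo 5 with a median of 8.14 CPM. The deviations of *Slc4a1* from its group means had r = −0.09 to those of *Alas2* over the 20 libraries and 0.25 without WT MAT2Ai 2, 3 and 4, and the part of red cells in *Slc4a1* was not tested.

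The water channels and their receptor varied more between mice than between groups. *Aqp2* (chr15:99579055-99584547), the vasopressin-regulated apical channel, read 215, 323, 322, 339 and 247 CPM in WT placebo, 196, 324, 495, 451 and 305 CPM in WT MAT2Ai, 305, 288, 259, 324 and 290 CPM in SP placebo, and 256, 160, 347, 245 and 314 CPM in SP MAT2Ai. The highest values were the libraries WT MAT2Ai 3 and 4 and the lowest was SP MAT2Ai 2. The MAT2Ai difference was 0.29 ± 0.21 in WT (edgeR adjusted p = 0.507) and −0.15 ± 0.21 in SP (edgeR adjusted p = 0.988), and under MAT2Ai *Aqp2* was the only member lower in SP, by −0.42 ± 0.21 (edgeR adjusted p = 0.248). Without WT MAT2Ai 2, 3 and 4 the WT drug difference was −0.21 and the SP against WT difference 0.08. These are the highest libraries of that group for *Aqp2*, so leaving them out lowers the group by construction. The urea transporter gene *Slc14a2*, a marker of the inner medullary collecting duct, was 34.6 CPM in WT MAT2Ai 3, 15.7 CPM in WT MAT2Ai 2 (where *Aqp2* was 324 CPM) and 3.80 CPM in WT MAT2Ai 4, with a median of 0.425 CPM over all libraries, and the part of deeper tissue in the *Aqp2* values was not tested.

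*Aqp3* (chr4:41092722-41098183) had means of 143 ± 19.3, 127 ± 33.0, 146 ± 12.2 and 131 ± 15.6 CPM (SD, n = 5; WT placebo, WT MAT2Ai, SP placebo, SP MAT2Ai). Its MAT2Ai difference was −0.18 ± 0.15 in WT and −0.16 ± 0.15 in SP, and over both genotypes −0.17 ± 0.10 (edgeR adjusted p = 0.442). *Avpr2* (chrX:73892102-73895502), the V2 vasopressin receptor, had means of 11.8 ± 2.29, 11.7 ± 6.83, 13.7 ± 3.57 and 13.6 ± 1.23 CPM in the same order. The *Avpr2* range in WT MAT2Ai, 4.77 to 21.0 CPM, held the lowest and the highest library of all 20. Its exons overlap those of *Arhgap4* on the opposite strand over 2347 bp, and since the strand setting of the counting is not given in the sources used here, its counts may include reads of that gene.

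Across the comparisons no member passed adjusted p under 0.05 in the edgeR fit, and no member had groups that did not overlap. In SP, MAT2Ai against placebo called 0 of 10 members against 0.0186% of all tested genes, with 2 members (*Scnn1a* and *Slc26a4*) at unadjusted p under 0.05 against 5.92%, and non-overlapping groups occurred in 1.58% of genes. Without the libraries labelled SP placebo 1 and 2, *Scnn1a* was 0.35 and *Slc26a4* 0.38, and 2 members were at unadjusted p under 0.05 against 3.55% of genes. In WT it called 0 of 10 against 0%, with 0 members at unadjusted p under 0.05 against 15.7%, and 2.19% of genes had non-overlapping groups. SP against WT under placebo called 0 of 10 against 0%, with 0 members at unadjusted p under 0.05 against 3.75%, and 1.19% of genes had non-overlapping groups. There 9 of 10 members were above 0, against 50% of all genes, with a median of 0.09 against 0.00, but the largest value was only 0.21 (*Avpr2*).

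SP against WT under MAT2Ai called 0 of 10 members against 1.84% of all genes, but 5 of 10 (*Scnn1a*, *Scnn1g*, *Slc26a4*, *Atp6v1g3* and *Atp6v0d2*) were higher at unadjusted p under 0.05, against 9.32% of genes higher and 21.8% in either direction, and 3.4% of genes had non-overlapping groups. In this comparison 9 of 10 members were above 0, against 46.6% of all genes, with a median of 0.24 against −0.02 over all genes. Other cell types moved in the same libraries: 9 of 10 proximal tubule markers were above 0 with a median of 0.23 (4 at unadjusted p under 0.05 and 1 called), and 10 of 10 tubular injury markers were below 0 with a median of −2.06 (3 called). Without WT MAT2Ai 2, 3 and 4, which leaves 2 libraries in that group, 1 of 10 members (*Slc26a4*) was at unadjusted p under 0.05 against 14.5% of genes. In that setting *Slc26a4* was 0.41 (edgeR adjusted p = 0.312) and *Atp6v0d2* 0.19, and 8 of the 9 members stayed above 0, while *Slc4a1* was below 0 and *Aqp2* above it. DESeq2 called *Slc26a4* (0.47, DESeq2 adjusted p = 0.0220) and *Atp6v0d2* (0.39, DESeq2 adjusted p = 0.0327) here, as it did 7.45% of all genes. Leaving out WT MAT2Ai 5, the WT MAT2Ai library highest for *Slc26a4*, *Atp6v0d2* and the 3 ENaC genes, gave 4 edgeR calls: *Scnn1a* 0.37 (adjusted p = 0.0465), *Scnn1g* 0.44 (adjusted p = 0.0472), *Slc26a4* 0.53 (adjusted p = 0.0442) and *Atp6v0d2* 0.48 (adjusted p = 0.0302). Leaving out the highest library of the lower group widens a difference by construction, and that fit called 4.7% of all genes. Leaving out SP MAT2Ai 3, the highest library for the same genes, put *Slc26a4* at 0.31 and *Atp6v0d2* at 0.33 and called 0 genes of all, as did leaving out SP MAT2Ai 5.

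Averaged over treatment, SP against WT called 0 of 10 members against 1.33% of genes, with 5 members higher at unadjusted p under 0.05 against 8.61% of genes higher and 19.6% in either direction (3 members against 18.9% of genes without the libraries labelled SP placebo 1 and 2, and 1 against 17.7% without WT MAT2Ai 2, 3 and 4), and 0.0371% of genes had non-overlapping groups. The 5 over all libraries were *Slc26a4* (0.29 ± 0.10, edgeR adjusted p = 0.108), *Atp6v0d2* (0.24 ± 0.08, edgeR adjusted p = 0.125), *Scnn1g* (0.24 ± 0.10), *Atp6v1g3* (0.20 ± 0.08) and *Scnn1a* (0.17 ± 0.08). With limma-voom and sample weights, which lower the weight of libraries that fit badly, *Scnn1g* (0.29, adjusted p = 0.0445), *Slc26a4* (0.30, adjusted p = 0.0355) and *Atp6v0d2* (0.23, adjusted p = 0.0488) passed the threshold, in a fit that called 8.3% of all genes (1341, against 215 with edgeR). MAT2Ai against placebo averaged over genotype called 0 of 10 members against 0.223% of genes, with 1 member (*Scnn1a*) at unadjusted p under 0.05 against 14.7%, and 0.0805% of genes had non-overlapping groups. The interaction called 0 of 10 against 0%, with 0 members at unadjusted p under 0.05 against 5.59%. DESeq2 and limma-voom called no member in any comparison other than those named. The comparisons share groups, so their values are not independent of one another. In bulk tissue, fewer or more cells of a type and a different amount of RNA per cell cannot be told apart.

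**Figure D2:**
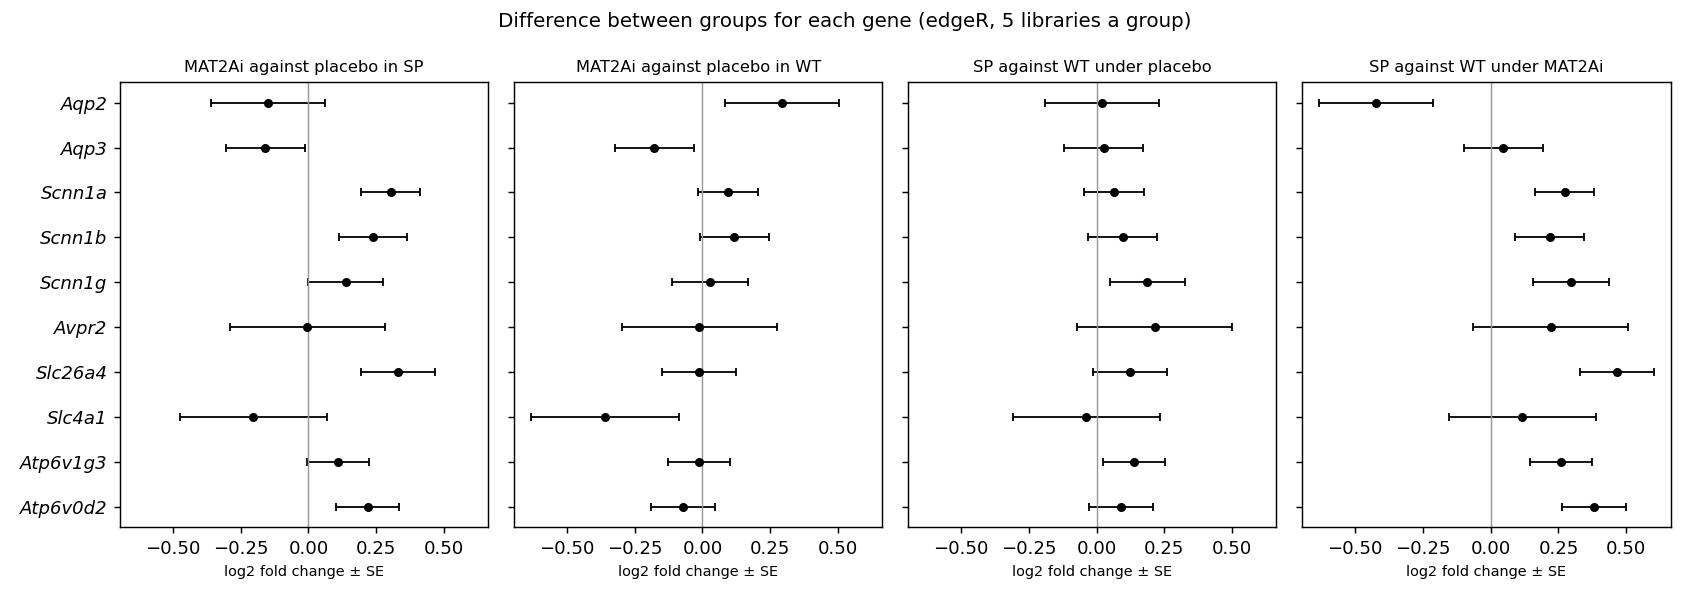
Log2 fold change of each gene (x axis; point, edgeR estimate; bar, SE) in the 4 comparisons between groups of 5 libraries. For SP against WT under MAT2Ai, 9 of 10 points are right of 0 and *Aqp2* (−0.42) is left of it, while the points for MAT2Ai in WT lie on both sides of 0.

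Other genes of the same cells and pathways were read from lists. Of 11 further intercalated cell genes (the transcription factor gene *Foxi1* and pump subunits such as *Atp6v1b1* among them), 11 were above 0 for MAT2Ai in SP with a median of 0.15, and 5 were above 0 in WT with a median of −0.03, and none was called by edgeR (1 and 0 at unadjusted p under 0.05). Of 6 type B genes, 6 were above 0 in SP with a median of 0.28, led by the homeobox gene *Hmx2* at 0.54 ± 0.20 (edgeR adjusted p = 0.833), whereas 3 of 6 type A genes were above 0. The medians over all genes were 0.00 in SP and 0.01 in WT. Within a library, the log2 ratio of pendrin to the type A water channel gene *Aqp6* averaged 0.32 ± 0.37 in WT placebo, 0.30 ± 0.29 in WT MAT2Ai, 0.49 ± 0.33 in SP placebo and 0.87 ± 0.36 in SP MAT2Ai (SD, n = 5), and its ranges overlapped between all groups. Of 16 pump subunits used by all cells, 9 were above 0 for MAT2Ai in SP with a median of 0.00. Under MAT2Ai 13 of 16 were above 0 in SP against WT, against 46.6% of all genes, with a median of 0.05. At unadjusted p under 0.05, 4 were higher and 0 lower, against 21.8% of all genes in either direction. By edgeR 1 of 16 was called, against 1.84% of all genes. This was *Atp6v1h*, the H subunit, which was higher in SP (0.25 ± 0.06, edgeR adjusted p = 0.0458). The call was near the threshold and held in 5 of the 20 fits with 1 library left out. In these 20 fits the difference was 0.22 to 0.29 and the edgeR adjusted p 0.0227 to 0.132.

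Of 14 genes between aldosterone or vasopressin and their channels, 8 were above 0 in SP against WT under MAT2Ai, with a median of 0.04. At unadjusted p under 0.05, 5 were higher and 2 lower, against 21.8% of all genes in either direction. By edgeR 1 was called, and it was lower, against 1.84% of all genes called. This was *Sgk1*, the aldosterone-induced kinase that keeps ENaC at the membrane. It read 59.7, 187, 92.3, 84.3 and 42.6 CPM in WT MAT2Ai against 35.4, 38.5, 39.0, 32.9 and 41.5 CPM in SP MAT2Ai. These groups did not overlap, as for 3.4% of all genes. With placebo *Sgk1* read 30.6, 57.5, 79.6, 42.0 and 55.5 CPM in WT against 43.3, 36.3, 37.6, 24.2 and 45.8 CPM in SP. Its log2 difference under MAT2Ai was −1.32 ± 0.30 (edgeR adjusted p = 0.0410), and averaged over treatment −0.91 ± 0.21 (edgeR adjusted p = 0.0408). The ENaC genes thus read the other way from *Sgk1* in the same mice. Without WT MAT2Ai 2 the *Sgk1* values were −0.90 (adjusted p = 0.0586) and −0.70 (adjusted p = 0.0349), and without WT MAT2Ai 2, 3 and 4 they were −0.45 (adjusted p = 0.447) and −0.48 (adjusted p = 0.123). Without the libraries labelled SP placebo 1 and 2 they were −1.31 (adjusted p = 0.0586) and −0.94 (adjusted p = 0.0650). Leaving out each of the 20 libraries in turn, *Sgk1* kept its sign throughout (−1.50 to −0.90 under MAT2Ai) but stayed under the threshold of 0.05 in 10 and 8 of 20 fits (edgeR adjusted p 0.0135 to 0.109 and 0.0168 to 0.0898). With only the 2 MAT2Ai groups in the fit it was −1.31 ± 0.32 (edgeR adjusted p = 0.178). *Prss8*, the protease prostasin that cleaves and activates ENaC, was higher in SP under MAT2Ai by 0.37 ± 0.11 and over both treatments by 0.29 ± 0.07 without passing the threshold (edgeR adjusted p = 0.0599 and 0.0574). It passed without WT MAT2Ai 2, at 0.26 (adjusted p = 0.0449) and 0.23 (adjusted p = 0.0150), and in all in 2 and 3 of the 20 fits with 1 library left out. Of 8 other principal cell genes none was called by edgeR in any comparison, and for SP against WT under MAT2Ai 1 was higher and 2 were lower at unadjusted p under 0.05.

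**Figure D3:**
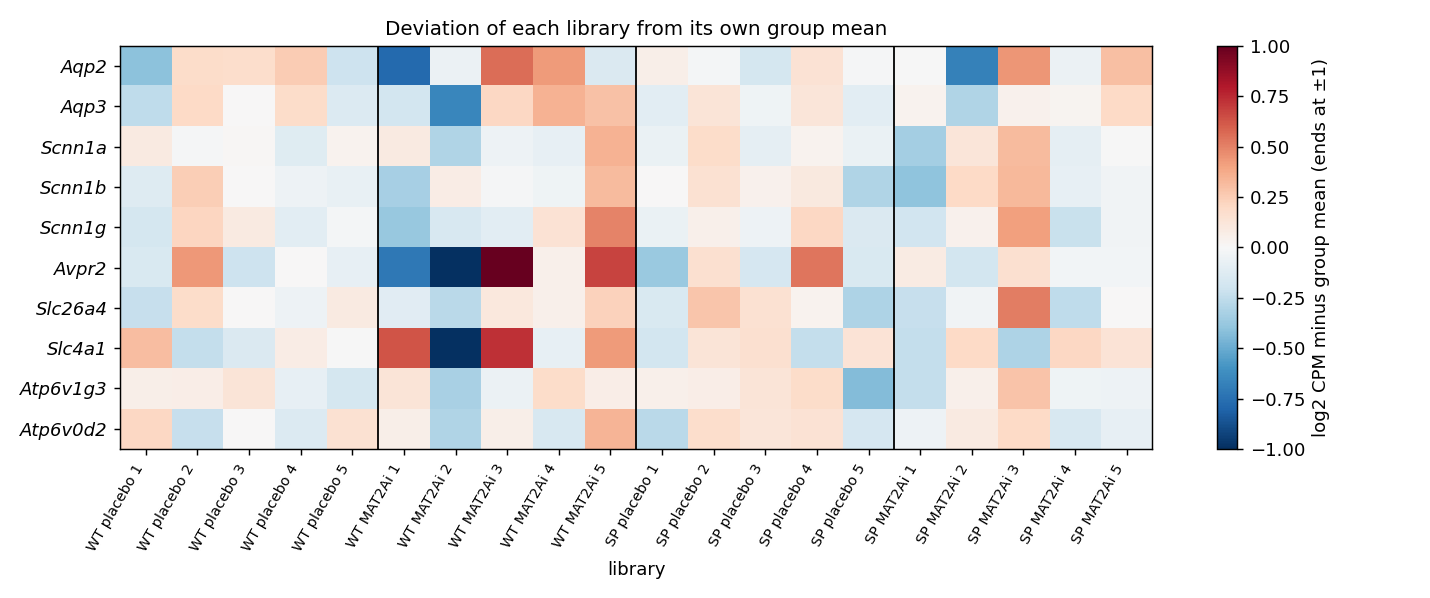
Log2 CPM of each gene (rows) in each library (columns) minus the mean of its own group, with colours ending at ±1. WT MAT2Ai 2 is blue for most genes and reaches the end colour for *Slc4a1* and *Avpr2*, and SP MAT2Ai 3 is red for the ENaC genes and *Slc26a4*.

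Once group means were taken out, what varied from mouse to mouse was shared by several genes. The residual SD on the log2 scale was lowest for *Scnn1a* (0.18), *Atp6v0d2* (0.20) and *Atp6v1g3* (0.20) and highest for *Slc4a1* (0.54), *Avpr2* (0.50) and *Aqp2* (0.38), against a median of 0.21 over all tested genes. Among genes of like level, 78.1% (for *Scnn1a*) to 98.6% (for *Slc4a1*) had a smaller SD than the member, so all 10 were on the variable side. WT MAT2Ai 2 was the lowest of the 20 libraries for 7 members (*Aqp3*, *Scnn1a*, *Avpr2*, *Slc26a4*, *Slc4a1*, *Atp6v1g3* and *Atp6v0d2*). SP MAT2Ai 3 was the highest for 6 (the 3 ENaC genes, *Slc26a4*, *Atp6v1g3* and *Atp6v0d2*), and it was also the highest for *Foxi1* at 40.0 CPM and for *Hmx2* at 14.3 CPM.

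Of the 45 pairs of members, 40 had a positive correlation of these deviations over 20 libraries, with a median r of 0.45, and 11 had an adjusted permutation p under 0.05 (100000 resamples, two-sided, adjusted over 45 pairs). Without WT MAT2Ai 2, 33 pairs were positive, with a median r of 0.36. The closest pair was *Scnn1b* and *Scnn1g* (r = 0.81, rho = 0.79, adjusted permutation p = 0.00090 and 0.00165), and r was 0.79 without the 2 libraries farthest in *Scnn1b* and 0.85 without WT MAT2Ai 2. Among 16151 other genes, *Scnn1g* ranked 3 for likeness to *Scnn1b*, and *Scnn1b* ranked 2 for likeness to *Scnn1g*. Pendrin followed the channel, with r = 0.76 and rho = 0.78 to *Scnn1g* (adjusted permutation p = 0.00202 and 0.00165), and r was 0.64 without the 2 farthest libraries. *Scnn1a* went with *Atp6v0d2* (r = 0.74, rho = 0.76, adjusted permutation p = 0.00150 and 0.00225), and r was 0.75 without the 2 farthest libraries. The pairs of *Slc26a4* with *Scnn1g* and of *Scnn1a* with *Atp6v0d2* crossed the line between principal and intercalated cells. All libraries share 1 piece of cortex per mouse, so the amount of collecting duct in the piece is common to every gene in it, and its part in these correlations was not tested.

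The water channel genes were correlated with each other and with the receptor gene. *Aqp3* correlated with *Avpr2* (r = 0.78, rho = 0.82, adjusted permutation p = 0.00135 and 0.00090; 0.67 without the 2 farthest libraries) and with *Aqp2* (r = 0.59, rho = 0.70, adjusted permutation p = 0.0285 and 0.00837; 0.53 without the 2 farthest libraries). For *Aqp2* and *Aqp3*, r was 0.80 without WT MAT2Ai 2, and the log2 ratio of *Aqp2* to *Aqp3*, which lay between 0.85 and 1.17 in WT placebo, spread from 0.86 to 2.06 in WT MAT2Ai. *Aqp2* had little relation to *Scnn1a* (r = −0.15) and *Atp6v0d2* (r = −0.27). For *Slc4a1* most values moved with 1 library: its r to *Aqp3* was 0.49 over all libraries and −0.46 without WT MAT2Ai 2, and to *Scnn1g* −0.07 and −0.54, but to *Scnn1b* −0.19 and −0.22.

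**Figure D4:**
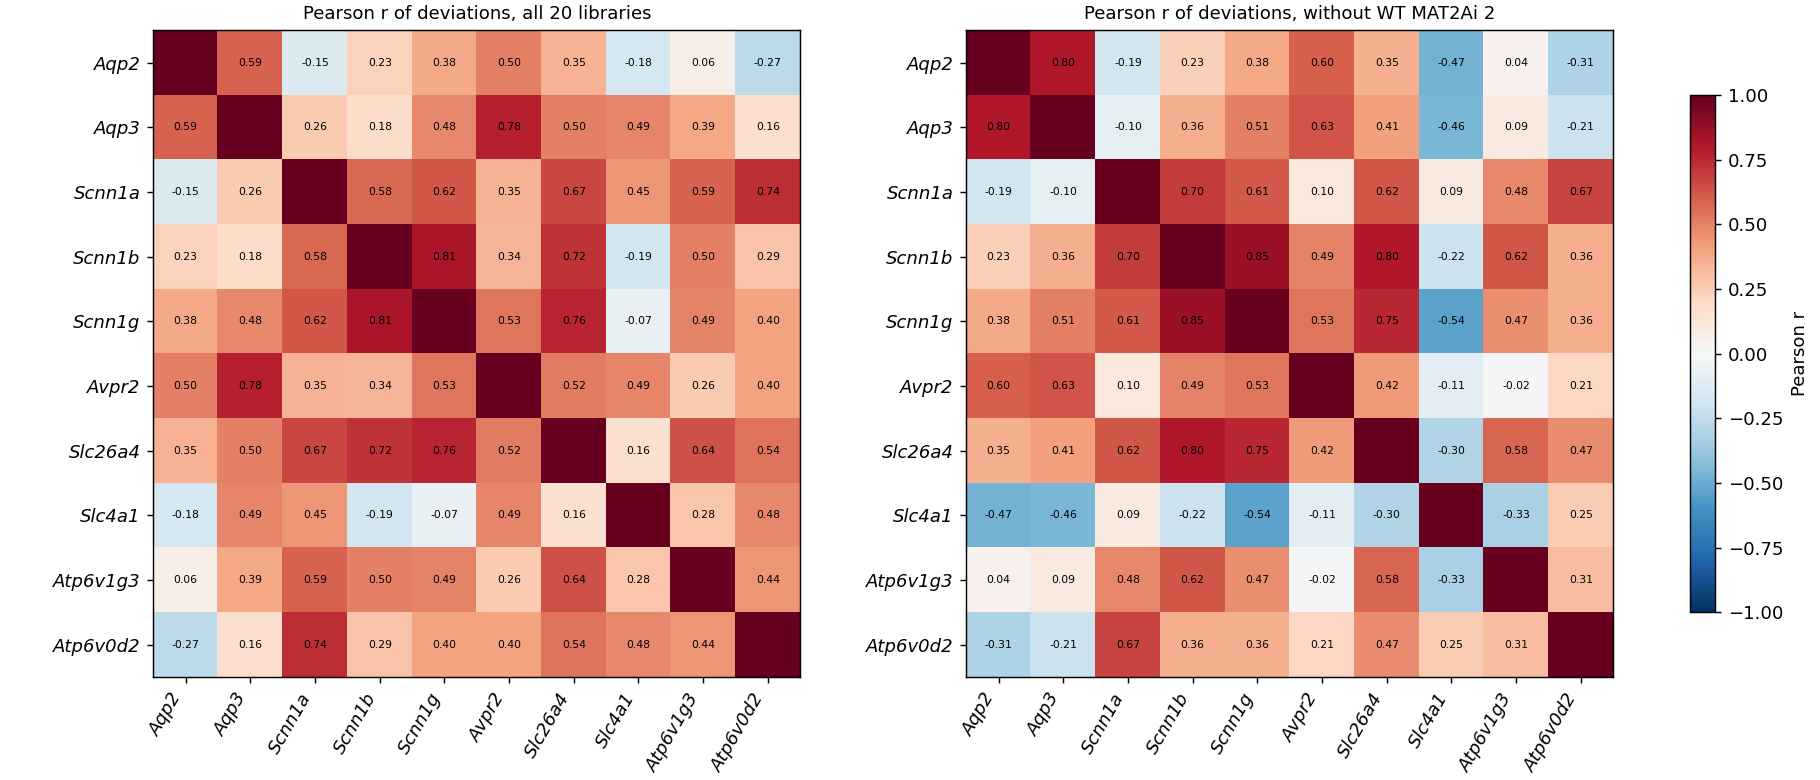
Pearson r between the deviations of each pair of genes from their group means, over all 20 libraries (left) and over 19 libraries without WT MAT2Ai 2 (right). The block of ENaC genes with *Slc26a4* keeps r of 0.61 to 0.85 on the right, while the *Slc4a1* row turns mostly blue.

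Markers of other cells were set beside these patterns. *Slc4a1* had r = 0.85 to *Slc34a1*, the phosphate transporter gene of the proximal tubule, and −0.72 to the injury marker *Havcr1*, and without WT MAT2Ai 2 these were 0.48 and 0.25. Its r to the type A gene *Aqp6* was 0.18 over all libraries and 0.68 without WT MAT2Ai 2. *Slc26a4* and *Atp6v0d2* had r = 0.62 and 0.61 to *Foxi1*, which drives intercalated cell fate, and 0.66 and 0.68 without WT MAT2Ai 2. The other intercalated genes *Atp6v1g3* and *Slc4a1* had r = 0.49 and −0.03 to *Foxi1*. Principal cell genes ran from −0.02 (*Aqp3*) to 0.48 (*Scnn1a*). The type B gene *Insrr* had r = 0.61 to *Slc26a4* but 0.75 to *Scnn1a*, so these values did not follow cell type alone. For genes of the distal convoluted and connecting tubule, *Slc26a4* had r = 0.68 to *Slc12a3* and 0.66 to *Calb1* (0.66 and 0.61 without WT MAT2Ai 2). This was not particular to *Slc26a4*. Over the 10 members, r to *Slc12a3* ran from 0.05 (*Aqp2*) to 0.68, with *Scnn1a* at 0.61. To *Calb1* it ran from 0.23 (*Aqp2*) to 0.77 (*Aqp3*). These correlations are descriptions over libraries that share each tissue piece.

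**Figure D5:**
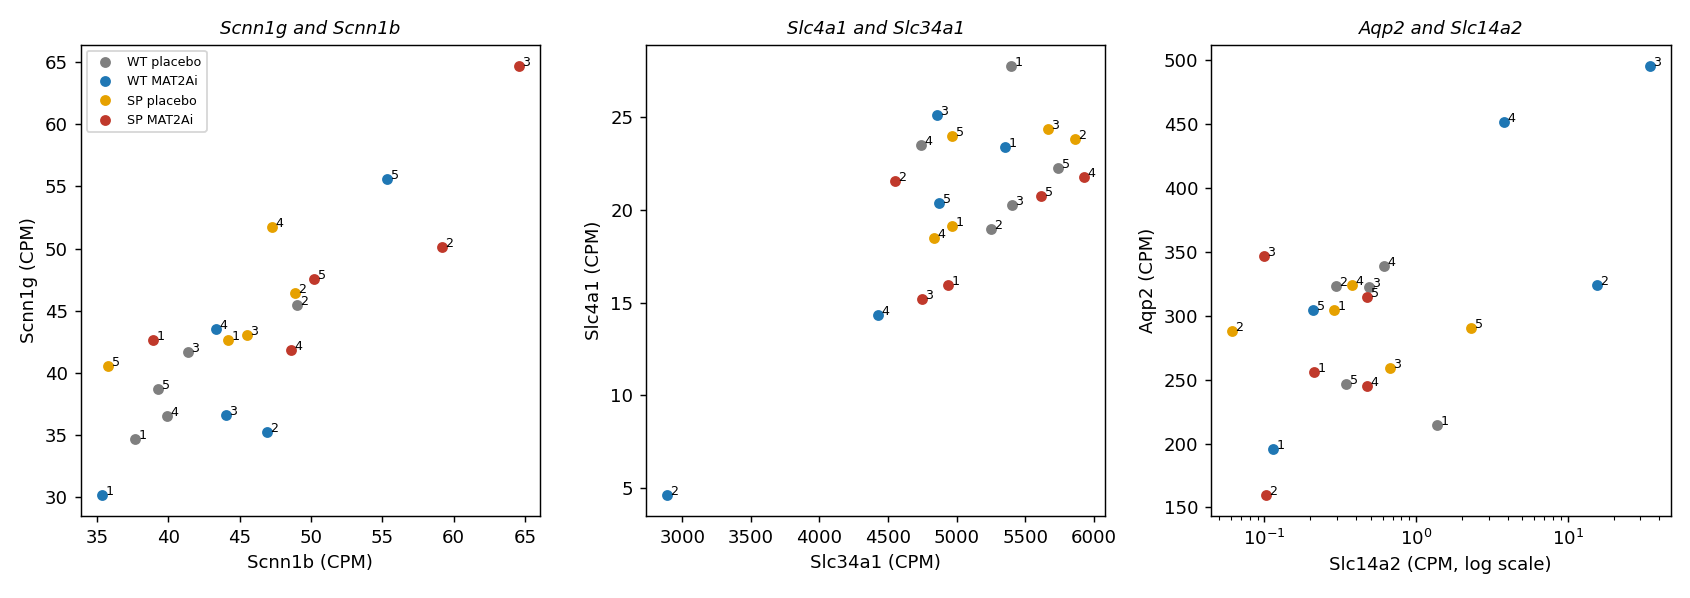
Each point is 1 library with its replicate number, in CPM on both axes (the x axis of the right panel is logarithmic). *Scnn1g* rises with *Scnn1b* in all groups (r of deviations 0.81), *Slc4a1* and *Slc34a1* are both lowest in WT MAT2Ai 2 (4.63 and 2887 CPM), and *Aqp2* is highest in WT MAT2Ai 3 and 4.

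The genes most like each member were searched among 11893 genes with a mean above 1 CPM, by r of the deviations over 20 libraries. *Aqp2* was nearest to *Epn3* (0.87), *Tcf7l1* (0.77) and *Ppih* (0.75), and *Aqp3* to *Dbn1* (0.88), *Scfd2* (0.87) and *Fam81a* (0.85). *Scnn1a* was nearest to *Ncoa7* (0.86), *Dsc2* (0.83) and *Tox3* (0.81). Both *Scnn1b* (0.83) and *Scnn1g* (0.89) had *Npy6r* as the nearest gene, followed for *Scnn1b* by *Gpatch3* (0.81) and for *Scnn1g* by *Cyb5rl* (0.78) and *Tldc2* (0.78). *Avpr2* was nearest to *Apela* (0.85), *Abcg1* (0.83) and *Pik3r3* (0.82), and *Slc26a4* to *Lurap1* (0.82), *Slc41a3* (0.79) and *Tmem163* (0.79). *Atp6v1g3* was nearest to *BC025446* (0.83), *Cutc* (0.83) and *Tmem151a* (0.83), and *Atp6v0d2* to *Unc5c* (0.81), *Suclg2* (0.80) and *Evi5* (0.80). *Slc4a1* had the closest matches of all, *Fut9* (0.97), *Pkd2* (0.94) and *Slc46a3* (0.94), but these fell to 0.83, 0.68 and 0.77 without WT MAT2Ai 2. Leaving out that library also lowered the matches of *Aqp3* (to 0.75, 0.70 and 0.70) and of *Avpr2* (to 0.76, 0.73 and 0.76, each in the order named). It left *Epn3* at 0.88 for *Aqp2* and *Npy6r* at 0.86 and 0.89 for *Scnn1b* and *Scnn1g*.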

How the data were processed

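RNA from kidney cortex was enriched for poly(A), made into strand-marked libraries and sequenced by the authors, who aligned reads with STAR 2.5.2 to mm10 and deposited raw counts per Ensembl 78 gene from htseq, 1 table per library; the strand setting is not given in the sources used here. The 5 summary lines of each table were left out. Groups came from the labels. Symbols and coordinates were taken from GENCODE M21 (mm10) and matched 42546 of 43430 genes. Counts were filtered with filterByExpr, scaled by trimmed mean of M values and tested with edgeR 4.0.16 (quasi-likelihood, R 4.3.3) in 1 fit over all 20 libraries with 4 group coefficients and 7 contrasts, adjusted by Benjamini-Hochberg over 16152 genes (threshold 0.05). The scripts were tested on simulated data. Correlations used log2 CPM (prior count 2) minus the group mean, with 100000 resamples. limma 3.58.1, DESeq2 1.42.0, other scaling, no filter, smaller fits, a replicate block and left-out libraries were alternatives.

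The members and lists were chosen with earlier results of these data known. All 10 members are named in each comparison, and from other lists those past the threshold or with the smallest p, *Prss8*, and the 3 nearest genes per member, of which 1 is not reported here. The values of listed genes and correlations with libraries left out, and those of listed genes with only the compared groups in the fit, were chosen after seeing the data.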

Additional observations from a re-analysis of the deposited data

Results flagged for a closer look

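In 3 of the 40 groups of 5 libraries (10 genes in 4 groups), 1 library lay far from the other 4 by Dixon's ratio, where chance gives about 1 group in 20. *Slc26a4* was 101 CPM in SP MAT2Ai replicate 3 against 59.3 to 70.9 CPM in the other SP MAT2Ai libraries. *Avpr2* was 15.7 CPM in WT placebo replicate 2 against 10.1 to 11.6 CPM in the other WT placebo libraries. *Atp6v1g3* was 36.7 CPM in SP placebo replicate 5 against 51.7 to 56.5 CPM in the other SP placebo libraries.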

How the results depend on the processing

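Of 1490 values of single members under the alternatives, 1393 kept their direction and side of the threshold, 9 passed the threshold where the reported value did not, and 88 changed sign, 64 of them with 1 library left out. Of 149 counts of called members, 146 stayed at 0.

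Counts of called members became 2 with DESeq2 (SP against WT under MAT2Ai) and 3 with limma-voom (SP against WT over both treatments), and ranged from 0 to 4 for SP against WT under MAT2Ai with 1 library left out, the 4 being without WT MAT2Ai replicate 5. The causes were not tested.

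No value whose sign changed was called over all libraries. With limma-voom, *Avpr2* for MAT2Ai in SP was 0.0074, and for MAT2Ai in WT *Scnn1g* was −0.055, *Slc26a4* 0.023, *Atp6v1g3* 0.036 and *Atp6v0d2* 1.08e-05. With limma-voom *Aqp2* was also −0.040 for SP against WT under placebo and −0.014 for MAT2Ai over both genotypes, and *Slc4a1* was −0.083 for SP against WT under MAT2Ai, −0.077 for the interaction and −0.044 for SP over both treatments. Without WT MAT2Ai 2, 3 and 4, *Aqp2* was −0.21 for MAT2Ai in WT, 0.080 for SP against WT under MAT2Ai, 0.061 for the interaction, −0.18 for MAT2Ai over both genotypes and 0.049 for SP over both treatments. In the same setting *Slc26a4* (0.041), *Atp6v1g3* (0.073) and *Atp6v0d2* (0.11) changed sign for MAT2Ai in WT, *Aqp3* was −0.0040 for the interaction, and *Slc4a1* was −0.20 for SP against WT under MAT2Ai, −0.16 for the interaction and −0.12 for SP over both treatments. Without the libraries labelled SP placebo 1 and 2, *Avpr2* was −0.058 for the interaction.

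With 1 library left out in turn, values for MAT2Ai in WT ran from −0.063 to 0.056 for *Atp6v1g3*, −0.34 to 0.18 for *Avpr2*, −0.0025 to 0.16 for *Scnn1a*, −0.12 to 0.11 for *Scnn1g* and −0.072 to 0.045 for *Slc26a4*, and for MAT2Ai in SP from −0.093 to 0.15 for *Avpr2*. For SP against WT under placebo they ran from −0.070 to 0.083 for *Aqp2*, −0.033 to 0.074 for *Aqp3* and −0.098 to 0.047 for *Slc4a1*, and under MAT2Ai from −0.085 to 0.13 for *Aqp3* and −0.13 to 0.28 for *Slc4a1*. For the interaction they ran from −0.11 to 0.11 for *Aqp3*, −0.19 to 0.34 for *Avpr2*, −0.0040 to 0.25 for *Scnn1g* and −0.085 to 0.32 for *Slc4a1*. Averaged over genotype, MAT2Ai values ran from −0.011 to 0.14 for *Aqp2*, −0.0049 to 0.081 for *Atp6v1g3* and −0.17 to 0.088 for *Avpr2*, and averaged over treatment, SP values ran from −0.031 to 0.080 for *Aqp3* and −0.083 to 0.12 for *Slc4a1*.

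Replicate numbers did not pair the libraries: over 30 same-numbered pairs the mean correlation of deviations was −0.0158, 4 were over 0.1, and 6 of 20 libraries matched their own number best. With the replicate block no member was called, *Avpr2* for MAT2Ai in SP was 0.0079, and calls over all genes went from 298 to 88 (SP against WT under MAT2Ai) and from 215 to 114 (SP over both treatments). Calls over all genes depended on the fit. For SP against WT under MAT2Ai they were 298 with edgeR, 1203 with DESeq2 and 2 with only the compared groups in the fit, which left *Sgk1* at −1.31 (adjusted p = 0.178) and *Atp6v1h* at 0.25 (adjusted p = 0.233). For SP over both treatments they were 215 with edgeR, 894 with DESeq2 and 1341 with limma-voom. For MAT2Ai, DESeq2 called 27 genes in SP, 215 in WT and 192 over both genotypes, limma-voom 17, 2 and 70, and edgeR 3, 0 and 36, or 10 in SP with only the compared groups. Under placebo DESeq2 called 7 and limma-voom 4, against 0 with edgeR, and DESeq2 called 1 for the interaction. The lowest count of any member in any library was 298.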
